A study of Mus musculus with 10 samples.

Results

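The mouse mitochondrial genome is a small circle of DNA with 37 genes, and all 37 were measured in the heart. They were found by matching the gene identifiers of the deposited expression table to GENCODE release vM21 (build GRCm38, which is mm10) and taking every gene on chromosome M, 37 of 55335 genes in all. They comprise 13 protein-coding genes, 2 rRNA genes and 22 tRNA genes. RNA-seq was run on 10 samples of heart tissue from wild-type male mice, with total RNA taken up in Trizol. The 5 control samples came from males whose dams got PBS (the prenatal vehicle), and the 5 PAMH samples from males whose dams got anti-Müllerian hormone while pregnant, a treatment used to model polycystic ovary syndrome. The labels give no age at collection and link no sample to a litter or dam. The p-values therefore rest on sample-to-sample spread alone, part of which may be technical or common to a litter. Whether the libraries were made by poly(A) selection or by removal of rRNA, and whether reads were counted by strand, is not given in the sources used here.

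Mitochondrial DNA is transcribed from both strands into long RNAs that carry many genes in a row. In most places a tRNA sits between neighbouring mRNAs or rRNAs, and enzymes cut the tRNAs out at their ends, which frees the RNAs between them (the tRNA punctuation model). The protein-coding genes specify core subunits of respiratory complexes I, III, IV and V, the rRNAs build the mitochondrial ribosome, and the tRNAs read all codons in that ribosome. The heart depends on this system for most of its ATP, and mitochondrial transcripts make up a large part of its RNA.

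Values are FPKM (fragment counts scaled by transcript length and by the mapped total). The FPKM of a sample summed to between 654350 and 717453, and between 16113 (PAMH replicate 4) and 21097 genes were above 0. The sequencing depth is unknown. All 10 cardiomyocyte markers examined, among them Myh6 and Tnnt2, were detected, and their summed level ranged from 14128 to 17737 FPKM in control and from 14003 to 18484 FPKM in PAMH hearts. PAMH replicate 4 had the highest summed level of 5 erythroid markers, 863 FPKM, against 97.3 to 437 FPKM in the others. The 9439 genes that averaged 1 FPKM or more were compared on the log2(FPKM + 1) scale with limma, with Benjamini-Hochberg adjustment over all of them and a threshold of 0.05, and a log2 fold change is PAMH minus control on this scale. Of the 10 cardiomyocyte markers 1 passed as higher in PAMH hearts and 0 as lower, and 4 had an unadjusted limma p under 0.05. Among all tested genes 4.95% passed as higher, 1.24% as lower, and 24.0% had an unadjusted p under 0.05. All 37 mitochondrial genes reached 1 FPKM.

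The mitochondrial genes that passed the test were 5 tRNA genes that sit side by side between mt-Nd2 and mt-Co1. These are mt-Tw, mt-Ta, mt-Tn, mt-Tc and mt-Ty, for tryptophan, alanine, asparagine, cysteine and tyrosine, which span 377 bases at chrM:4950-5326. The cluster is known by the initials of its amino acids as WANCY, and the origin of light-strand replication lies in the 32 bases between mt-Tn and mt-Tc. mt-Tw has the sense of most mitochondrial mRNAs, and the other four are encoded in the opposite sense. Their sequences are shown because they are the genes whose level fell, read 5′ to 3′ from the GENCODE vM21 transcripts with T for U and with the anticodon in capitals.
mt-Tw: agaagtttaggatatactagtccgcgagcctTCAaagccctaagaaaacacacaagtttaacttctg
mt-Ta: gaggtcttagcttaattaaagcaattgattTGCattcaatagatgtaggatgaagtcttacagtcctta
mt-Tn: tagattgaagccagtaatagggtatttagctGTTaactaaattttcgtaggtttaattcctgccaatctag
mt-Tc: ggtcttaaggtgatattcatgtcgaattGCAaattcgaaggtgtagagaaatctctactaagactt
mt-Ty: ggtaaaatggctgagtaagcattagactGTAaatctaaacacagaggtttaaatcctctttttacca
The genes are 66 to 71 bases long, and between 33.3% (mt-Ta) and 40.3% (mt-Tw) of their bases are G or C. All are shorter than an mRNA by far (the shortest mitochondrial mRNA gene, mt-Atp8, has 204 bases), so the deposited value of a tRNA gene may come from the mature tRNA or from longer precursor RNAs that run through it, and the table cannot tell these apart.

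Each of the 5 genes fell in PAMH hearts to between 72.4% and 80.0% of the control mean, and for each the highest PAMH sample was below the lowest control sample. In all, 5 of the 37 mitochondrial genes (13.5%) passed the test as lower and none as higher, whereas 1.24% of the 9439 tested genes were called lower and 4.95% higher. By the plainer measure of groups that do not overlap, 6 of 37 (16.2%) were lower in every PAMH sample, these 5 and mt-Ti, and none was higher in every PAMH sample. Over all tested genes 1.71% were lower, 6.74% higher and 8.44% either way by this measure. For a fall shared by all mitochondrial genes, fewer mitochondria-rich cells, fewer mitochondrial genomes per cell and less RNA per genome cannot be told apart in bulk tissue. What lowered these 5 genes more than the mRNAs beside them was not tested.

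mt-Tw had 790, 956, 862, 887 and 784 FPKM in control replicates 1 to 5 and 516, 619, 616, 704 and 643 FPKM in PAMH replicates 1 to 5. The highest PAMH heart was thus 704 FPKM and the lowest control heart 784 FPKM. Its log2 fold change of -0.47 (SE 0.087) was the largest of the 5, with a limma adjusted p of 0.0106.

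mt-Ta had 3318, 3753, 3697, 3444 and 3453 FPKM in control and 2485, 2920, 2964, 2890 and 2870 FPKM in PAMH hearts. Its groups were separated, with PAMH replicate 1 well under the other PAMH hearts (log2 fold change -0.32, SE 0.064, limma adjusted p = 0.0138). mt-Tn, the most abundant of the 22 tRNAs, had 7009, 7705, 7729, 6862 and 7254 FPKM in control and 5067, 5944, 6063, 5687 and 5903 FPKM in PAMH hearts. No PAMH heart reached the lowest control heart (log2 fold change -0.35, SE 0.063, limma adjusted p = 0.00909).

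mt-Tc had 6083, 6474, 6601, 5651 and 6263 FPKM in control and 4192, 4983, 5133, 4732 and 4999 FPKM in PAMH hearts. These values gave a log2 fold change of -0.37 (SE 0.068, limma adjusted p = 0.00987). mt-Ty had 3527, 3649, 3761, 3287 and 3610 FPKM in control and 2465, 2892, 3124, 2826 and 2871 FPKM in PAMH hearts (log2 fold change -0.33, SE 0.068, limma adjusted p = 0.0156). PAMH replicate 1 was the lowest of all 10 hearts for each of the 5 genes.

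**Figure D1:**
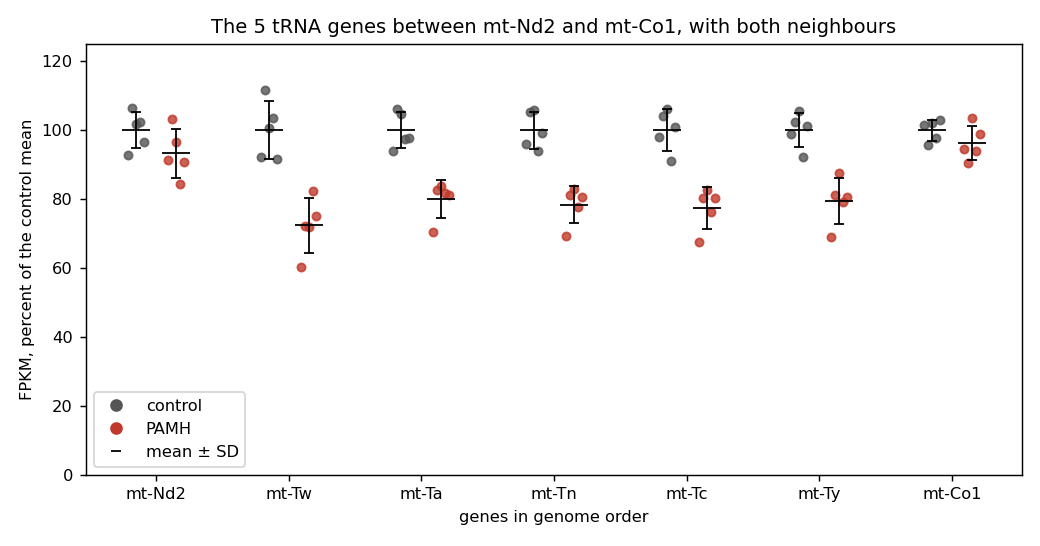
Level of the 5 tRNA genes between mt-Nd2 and mt-Co1 and of those 2 neighbours, in genome order on the horizontal axis, with FPKM as percent of the control mean on the vertical axis. Points are samples and bars the mean with SD (n = 5 each). For the 5 tRNA genes all PAMH points lie under all control points, with means at 72.4% to 80.0%, whereas the groups overlap for mt-Nd2 (93.2%) and mt-Co1 (96.3%).

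Both mRNAs that flank the cluster showed much smaller differences. mt-Nd2, a complex I subunit, had a log2 fold change of -0.10 (SE 0.063, limma adjusted p = 0.345) and mt-Co1, the catalytic subunit of complex IV, of -0.055 (SE 0.048, limma adjusted p = 0.519). The 5 tRNAs together summed to 21482 ± 1105 FPKM in control and 16822 ± 1231 FPKM in PAMH hearts (SD, n = 5 each). Set against mRNAs of the same sample, which removes the sample's scaling, the sum was 6.19% ± 0.362 of the mitochondrial protein-coding sum in control and 5.11% ± 0.306 in PAMH hearts, with no overlap. Against mt-Co1 alone it was 18.9% ± 1.179 and 15.4% ± 1.13, again with no overlap. Against mt-Nd2 it was 111.9% ± 5.84 and 94.1% ± 8.23, and there the groups overlapped, since PAMH replicate 4 (103.9%) was above control replicate 4 (102.3%). These sums over chosen genes carry no test.

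The 5 calls are not independent of each other. The ratio of mt-Tn to mt-Ta varied over the 10 hearts with a coefficient of variation of 2.22%, that of mt-Tc to mt-Tn with 1.75% and that of mt-Ty to mt-Tc with 2.26%, whereas the ratio of mt-Ta to mt-Tw, which are encoded in opposite senses, varied by 7.90%. The genes lie 1 or 2 bases apart except for the 32 bases between mt-Tn and mt-Tc, and a single RNA fragment can cover more than 1 of them. Because the strand setting is not given, RNA of these genes and RNA read from the opposite strand across them cannot be told apart.

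The calls rested on no single heart. All 5 genes passed in each of the 10 fits that left out 1 sample, with log2 fold changes from -0.52 to -0.28 and adjusted p of at most 0.0495. Among all 22 other settings the exceptions were quantile normalization and scaling to the mitochondrial protein-coding sum. Under quantile normalization only mt-Tw of the 5 passed. There mt-Ta, mt-Tn, mt-Tc and mt-Ty had log2 fold changes of -0.015, -0.056, -0.19 and -0.089 (limma adjusted p = 0.871, 0.598, 0.0513 and 0.552). Under protein-coding-sum scaling mt-Ta missed the threshold (log2 fold change -0.24, limma adjusted p = 0.0520). Quantile normalization gives each rank the same value in every sample, so the most abundant genes have nearly fixed values under it. Some markers of other cell types also differed between the groups. The 5 epicardial and mesothelial markers summed to 0.404 to 1.16 FPKM in control and 2.46 to 6.67 FPKM in PAMH hearts (1 of 1 tested, Upk3b, higher), and without Upk3b to 0.211 to 0.683 and 1.29 to 4.15 FPKM, still apart. The 6 smooth muscle and pericyte markers summed to 76.2 to 116 and 127 to 171 FPKM (1 of 5 tested, Acta2, higher), but without Acta2 to 66.6 ± 12.0 and 66.1 ± 12.3 FPKM, with overlap. Of the 5 brown fat markers, Cidea was higher in every PAMH heart (14.5 ± 1.01 and 20.5 ± 2.13 FPKM), while Ucp1, Adipoq, Plin1 and Elovl3 together reached at most 0.355 FPKM in any heart. Of 7 tested endothelial markers 1 fell, Cldn5 (7.51 ± 0.797 to 3.66 ± 0.906 FPKM, limma adjusted p = 0.00200). Of these 7 markers 2 had a positive change, and their median log2 fold change was -0.18. Of 4 tested leukocyte markers 1 rose, Cd68 (3.38 ± 0.355 to 5.05 ± 0.803 FPKM, limma adjusted p = 0.0187). Cd68 was the only 1 of the 4 with a positive change, and their median was -0.050. The sums of both lists overlapped between groups. Among all tested genes 4.95% were called higher and 1.24% lower. Their part in the tRNA result was not tested.

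**Figure D2:**
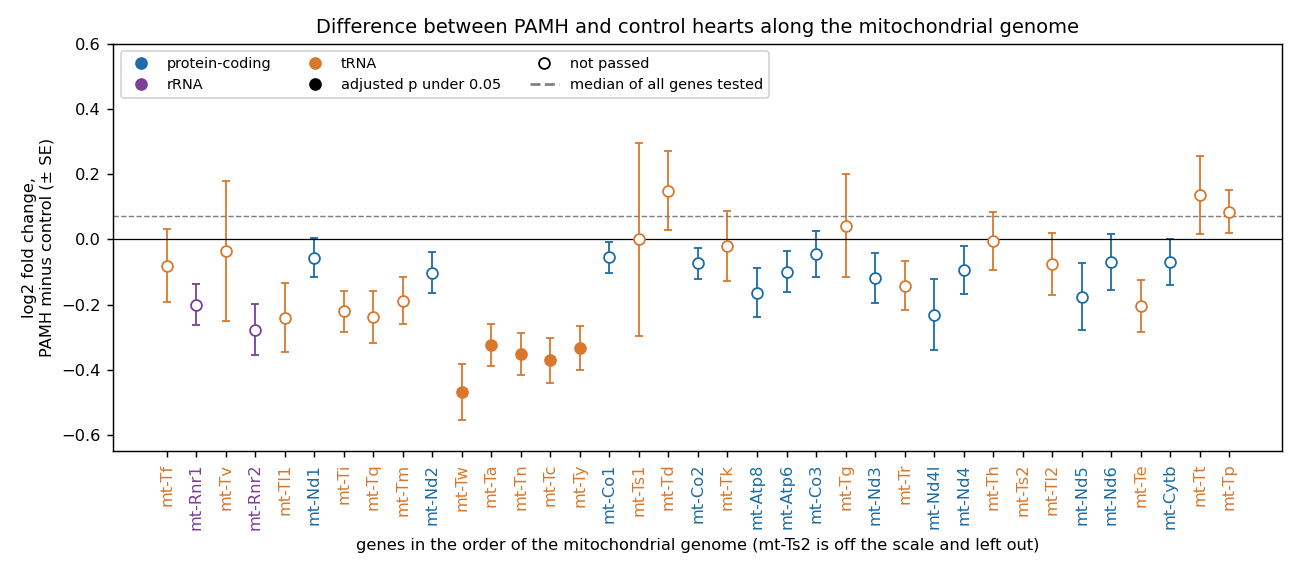
Log2 fold change (PAMH minus control, vertical axis, bars are the SE of limma) of the mitochondrial genes in genome order, coloured by class, with mt-Ts2 left out. Filled points passed the adjusted p threshold of 0.05, and the dashed line is the median of all tested genes (0.071). The filled points are the 5 neighbouring tRNA genes, at -0.47 to -0.32, and no other point reaches below -0.28.

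None of the other 17 tRNA genes passed. Leaving aside mt-Ts2, the 16 remaining tRNAs were of like length (65 to 75 bases) and had log2 fold changes from -0.24 to 0.15 with a median of -0.056, and 12 of them were negative. Over all 22 tRNAs 18 changes were negative in the deposited FPKM, 20 under median ratio scaling, 14 when samples were rescaled to the same FPKM sum and 13 when scaled to the mitochondrial protein-coding sum. Among all tested genes 32.7% were negative in the deposited FPKM.

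The next lowest values belonged mostly to tRNAs on either side of mt-Nd1. mt-Ti, for isoleucine, had 2025, 1955, 2102, 1995 and 2265 FPKM in control and 1726, 1660, 1866, 1911 and 1712 FPKM in PAMH hearts. Its groups did not overlap, but it missed the threshold over all genes (log2 fold change -0.22, SE 0.063, limma adjusted p = 0.0573). Leaving out PAMH replicate 3 or 4 brought it past the threshold (adjusted p = 0.0329 and 0.0330). mt-Tl1, which reads leucine codons, had a log2 fold change of -0.24 (SE 0.11, limma adjusted p = 0.194). mt-Tq, for glutamine, and mt-Tm, for methionine, follow mt-Ti and had -0.24 (limma adjusted p = 0.0952) and -0.19 (limma adjusted p = 0.132). Without PAMH replicate 3 the adjusted p of mt-Tl1 was 0.0476 and that of mt-Tm 0.0456. mt-Te, for glutamate, next to mt-Nd6, had -0.20 (limma adjusted p = 0.147).

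At the other end, mt-Td, mt-Tt, mt-Tp and mt-Tg, for aspartate, threonine, proline and glycine, had positive values of 0.15, 0.14, 0.085 and 0.042. mt-Tr had -0.14, mt-Tf -0.081, mt-Tl2 -0.076, mt-Tv -0.036, mt-Tk -0.020, mt-Th -0.0059 and mt-Ts1 -0.00029, and for these 11 genes the limma adjusted p ran from 0.278 to 0.9995. mt-Tg changed sign to -0.056 under median ratio scaling, and mt-Tv, mt-Tk, mt-Th and mt-Ts1 turned positive when samples were rescaled to the same sum. Of the 8 tRNA genes of the light-strand sense 4 fell (those of the cluster), and of the 14 in the sense of most mRNAs 1 fell (mt-Tw).

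The levels of the tRNA genes spread widely, in an order that was much the same in both groups. mt-Tn had a mean of 6522 FPKM over the 10 hearts, mt-Tc 5511, mt-Te 4049, mt-Tl1 3759, mt-Ty 3201 and mt-Ta 3179 FPKM. mt-Ti (1922 FPKM), mt-Tm (1039 FPKM), mt-Tw (738 FPKM), mt-Tp (725 FPKM) and mt-Tl2 (657 FPKM) followed. mt-Tr, mt-Tg, mt-Th and mt-Tq lay between 325 and 421 FPKM, and mt-Tk, mt-Td, mt-Tv, mt-Tt, mt-Ts1 and mt-Tf between 18.9 and 68.9 FPKM. Some neighbours in this order were not separated: mt-Ty was above mt-Ta in 5 of 10 hearts, mt-Tw above mt-Tp in 6 and mt-Tg above mt-Th in 4. How the FPKM were divided by length for genes as short as these is not given in the sources used here.

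mt-Ts2, the shortest tRNA gene at 59 bases and the one that lacks the D arm found in other tRNAs, had a pattern of its own. Its sequence is shown because its values split into extremes, with the anticodon in capitals.
mt-Ts2: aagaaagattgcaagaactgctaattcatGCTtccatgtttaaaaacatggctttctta
It was listed at 0.156, 0.192 and 0.196 FPKM in control replicates 1 to 3 whereas control replicates 4 and 5 had 537 and 499 FPKM. The PAMH hearts had 0.253, 0.203, 0.192, 0.265 and 0.232 FPKM. The 8 low hearts, from both groups, lay within 0.156 to 0.265 FPKM while 2 control hearts were far above them, so the log2 fold change of -3.45 (SE 1.73, limma adjusted p = 0.251) reflects those 2 hearts. Its neighbours on both sides, mt-Th and mt-Tl2, had no such split (353 to 480 and 564 to 794 FPKM over the 10 hearts).

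**Figure D3:**
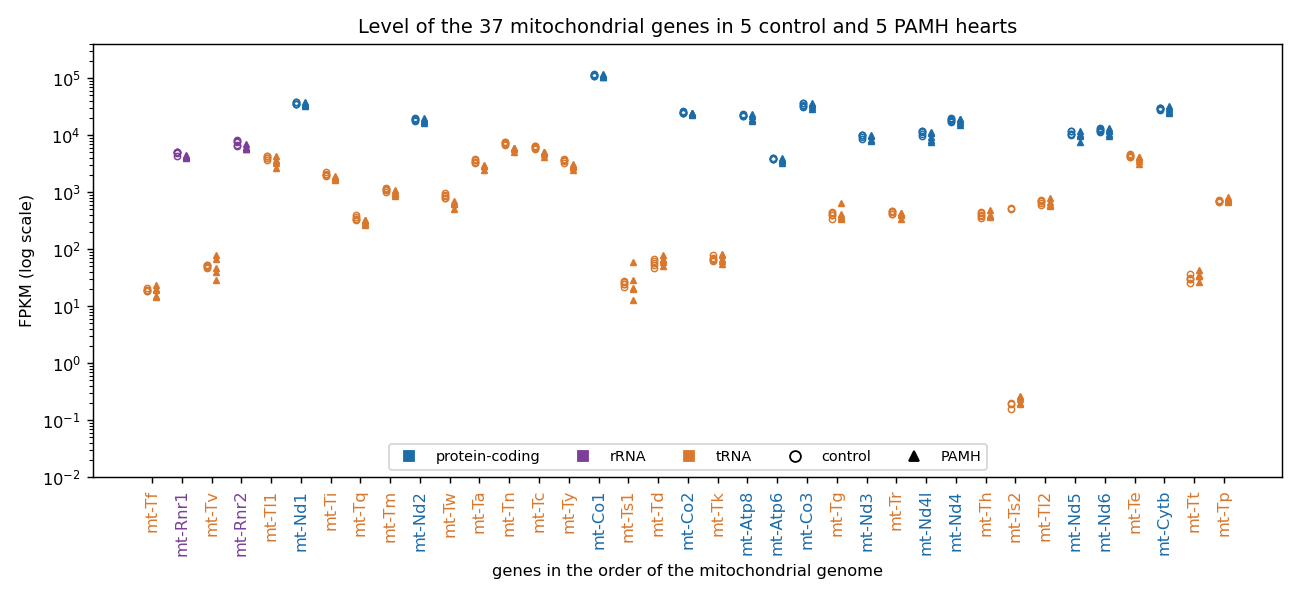
FPKM (vertical log axis) of the 37 mitochondrial genes in genome order, coloured by class, with open circles for the 5 control and triangles for the 5 PAMH hearts. mt-Co1 is highest, tRNAs reach from mt-Tn at 6522 FPKM down to mt-Tf at 18.9 FPKM, and mt-Ts2 splits into 8 hearts at 0.156 to 0.265 FPKM and 2 control hearts at 499 and 537 FPKM.

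The 2 rRNAs had lower means in PAMH hearts but did not pass the test over all genes. mt-Rnr1, the RNA of the small ribosomal subunit, had 5165, 4986, 4799, 4281 and 5053 FPKM in control and 4501, 4139, 4109, 4321 and 4027 FPKM in PAMH hearts. Only control replicate 4 lay within the PAMH range (log2 fold change -0.20, SE 0.063, limma adjusted p = 0.0763), and without it the adjusted p was 0.0468. mt-Rnr2, the RNA of the large subunit, had 7822, 6536, 7591, 6746 and 8342 FPKM in control and 6210, 5809, 6893, 5855 and 5739 FPKM in PAMH hearts. PAMH replicate 3 lay within the control range (log2 fold change -0.28, SE 0.079, limma adjusted p = 0.0573). The adjusted p was 0.0202 without PAMH replicate 3 and 0.0408 without control replicate 2. Both rRNAs passed under median ratio scaling (adjusted p = 0.0269 and 0.0478), and under quantile normalization the values were -0.071 and 0.

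A comparison within each sample, which does not depend on scaling, was made for mt-Rnr2 and the mRNA that follows it, mt-Nd1, the first complex I gene. Such a ratio still depends on how much rRNA each library kept. How the libraries were made is not given, and this was not tested. The 2 genes are parted by mt-Tl1 alone. The ratio of mt-Rnr2 to mt-Nd1 was 0.220, 0.187, 0.200, 0.193 and 0.214 in control and 0.186, 0.167, 0.180, 0.181 and 0.155 in PAMH hearts. All PAMH ratios were lower than all control ratios, with a difference in the mean log2 ratio of -0.22 (exact 2-sided permutation p = 0.00794, the smallest that 5 against 5 samples can give, adjusted p = 0.0317 over 4 ratios). With 1 sample left out, the adjusted p rose to 0.0635 for control replicates 1, 3 and 5 and for each PAMH replicate, and stayed at 0.0317 for control replicates 2 and 4. The difference then ranged from -0.25 to -0.18.

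The other 3 ratios did not pass. The ratio of the rRNAs to each other, mt-Rnr2 to mt-Rnr1, was 1.53 ± 0.13 in control and 1.45 ± 0.13 in PAMH hearts (exact permutation p = 0.341, adjusted p = 0.455). That of mt-Nd6, the single mRNA of the light-strand sense, to its neighbour mt-Nd5 was 1.11 ± 0.0269 and 1.20 ± 0.117 (exact permutation p = 0.167, adjusted p = 0.333). It was 1.27, 1.07, 1.07, 1.30 and 1.27 in PAMH replicates 1 to 5 and lay between 1.08 and 1.15 in control hearts, so the PAMH hearts lay on both sides of the control range. The ratio of mt-Co1 to mt-Cytb, an upstream mRNA to the last one, was 3.87 ± 0.0838 and 3.92 ± 0.313 (exact permutation p = 0.754, adjusted p = 0.754).

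None of the 13 mRNAs passed the test. In the deposited FPKM all 13 log2 fold changes were negative, from -0.23 (mt-Nd4l) to -0.045 (mt-Co3) with a median of -0.095, against a median of 0.071 over all tested genes, with adjusted p from 0.210 to 0.742 (none had an unadjusted p under 0.05, as 24.0% of all tested genes did). The count of negative changes was 12 when samples were rescaled to the same sum and 7 when scaled to the mitochondrial protein-coding sum. It was 13 under median ratio and nuclear-sum scaling. Under quantile normalization 5 were negative, 3 positive and the rest 0, with a median of 0. Their median depended on scaling, at -0.19 under median ratio, -0.21 under nuclear-sum and -0.016 under protein-coding-sum scaling.

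By respiratory complex, the 7 subunits of complex I had log2 fold changes from -0.23 to -0.057. In FPKM, mt-Nd1 had a mean of 36520 ± 1881 in control and 35146 ± 2464 in PAMH hearts, mt-Nd2 19221 ± 1010 and 17923 ± 1361, and mt-Nd3 9633 ± 633 and 8890 ± 938. mt-Nd4l had 11032 ± 986 and 9478 ± 1596 FPKM, the widest gap of the mRNAs (limma adjusted p = 0.220), and mt-Nd4 18561 ± 1093 and 17430 ± 1766 FPKM. mt-Nd5 had 11080 ± 807 and 9890 ± 1543 FPKM and mt-Nd6 12281 ± 851 and 11749 ± 1481 FPKM. In each of these 7 genes the groups overlapped. PAMH replicate 4 was the lowest heart for 6 of them, and PAMH replicate 1 for mt-Nd3.

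mt-Cytb, the mitochondrial subunit of complex III, had 29442 ± 895 and 28157 ± 3022 FPKM (log2 fold change -0.070, limma adjusted p = 0.576). Of complex IV, mt-Co1 had 113909 ± 3501 and 109692 ± 5676 FPKM, mt-Co2, which takes up electrons from cytochrome c, 25161 ± 787 and 23919 ± 896 FPKM, and mt-Co3 34206 ± 2495 and 33199 ± 2932 FPKM. Their log2 fold changes were -0.055, -0.073 and -0.045. Of complex V, the ATP synthase, mt-Atp8 had 22383 ± 804 and 20086 ± 2395 FPKM (log2 fold change -0.16, limma adjusted p = 0.210) and mt-Atp6 3870 ± 102 and 3621 ± 295 FPKM (log2 fold change -0.099, limma adjusted p = 0.360). mt-Atp8 split the PAMH hearts, with 21722 and 23379 FPKM in replicates 2 and 3 and 17759 to 19347 FPKM in the others, and without PAMH replicate 3 it passed (log2 fold change -0.22, adjusted p = 0.0474).

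Among mRNAs, mt-Co1 was the most abundant gene of the whole table (111800 FPKM over the 10 hearts), and the order then ran mt-Nd1, mt-Co3, mt-Cytb, mt-Co2, mt-Atp8, mt-Nd2, mt-Nd4, mt-Nd6, mt-Nd5, mt-Nd4l, mt-Nd3 and mt-Atp6 (3746 FPKM). This order held in all 10 hearts for each pair of neighbours but 4. mt-Nd1 was above mt-Co3 in 8 hearts, and mt-Nd2 above mt-Nd4, mt-Nd5 above mt-Nd4l and mt-Nd4l above mt-Nd3 in 7 each. The order counts each mRNA without any copy in the nucleus (described below), so it depends on where fragments were counted. The copy of mt-Atp6, Gm10925, was listed at 22932 FPKM. The rRNAs, far more abundant than the mRNAs in a mitochondrion, stood at 6754 FPKM (mt-Rnr2) and 4538 FPKM (mt-Rnr1), below 12 of the mRNAs.

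The share of each class in the sample's FPKM sum showed the same division. Protein-coding genes, without their copies in the nucleus, held 49.3% ± 0.608 in control and 48.3% ± 1.68 in PAMH hearts. The groups overlapped, with control hearts from 48.3% to 49.8% and PAMH hearts from 45.8% (replicate 4) to 50.4% (replicate 3). The rRNAs held 1.74% ± 0.126 and 1.52% ± 0.0877, and only control replicate 4 (1.58%) lay within the PAMH range of 1.40% to 1.64%. The tRNAs held 5.18% ± 0.138 and 4.39% ± 0.198, from 4.99% to 5.34% in control and from 4.15% to 4.58% in PAMH hearts, with a clear gap. FPKM give short genes as much weight as long ones. Weighted by length, tRNAs made up 0.642% ± 0.0220 of the mitochondrial total in control and 0.558% ± 0.0202 in PAMH hearts, again without overlap, rRNAs 4.15% ± 0.285 and 3.68% ± 0.220, and mRNAs 95.2% ± 0.274 and 95.8% ± 0.207. The tRNAs outside the cluster, without mt-Ts2, summed to 4.26% ± 0.0817 of the protein-coding sum in control and 3.99% ± 0.159 in PAMH hearts, and these groups were just apart (4.15% to 4.35% against 3.74% to 4.15%). In FPKM the sum of the same tRNAs overlapped between groups, from 14329 to 15234 in control and from 11507 to 14736 in PAMH hearts.

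**Figure D4:**
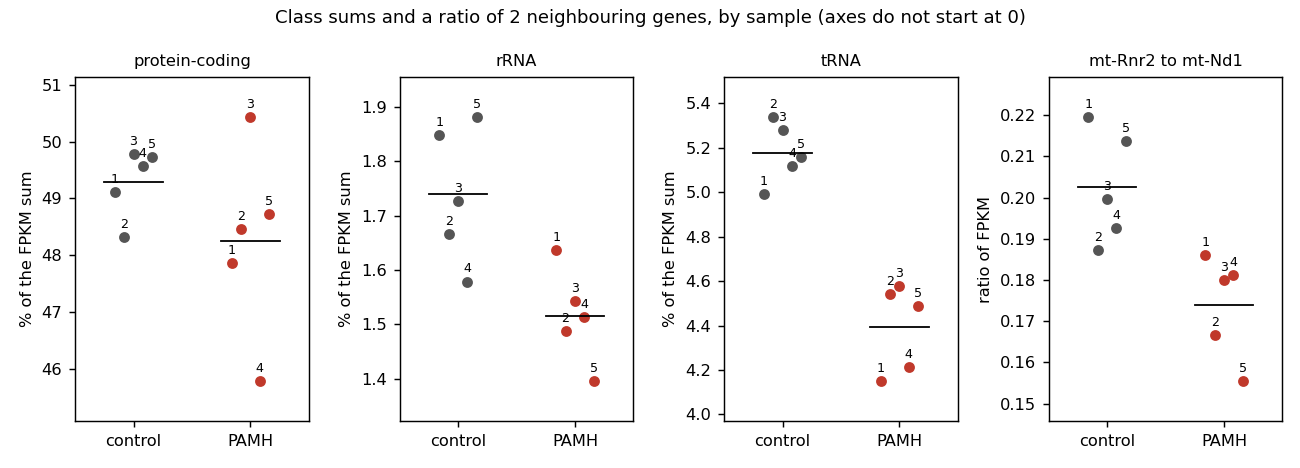
Share of the FPKM sum held by mitochondrial protein-coding, rRNA and tRNA genes, and the ratio of mt-Rnr2 to mt-Nd1, by sample (numbers are replicates, lines are group means, and the axes do not start at 0). tRNA shares and the ratio are lower in all 5 PAMH than in all 5 control hearts, whereas protein-coding and rRNA shares overlap.

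Part of the mitochondrial genome has a near-identical copy in the nucleus, which bears on where fragments were counted. At chr1:24611535-24616197 the annotation has 7 unprocessed pseudogenes on the minus strand, and all were listed at high FPKM. Gm28661 (a copy of mt-Co2), Gm10925 (mt-Atp6), Gm28437 (mt-Co3), Gm10222 (mt-Nd4l) and Gm28439 (the first 876 bases of mt-Nd4) were identical to the mitochondrial gene over the stretch aligned. Gm28438 differed from mt-Nd3 by 1 substitution, T3C, and Gm29216 from the last 483 bases of mt-Co1 by A1066T, with positions counted from 1 at the 5′ end of the mitochondrial gene and its base first. The copies of mt-Co2, mt-Co3 and mt-Nd4l had 1.006, 1.002 and 1.005 times the FPKM of their gene, with coefficients of variation of 0.0700%, 0.0513% and 0.217% over the 10 hearts, and the copy of mt-Nd3 had 0.966 times. The copies that match only a stretch of their gene were lower, Gm28439 at 0.591 times mt-Nd4 and Gm29216 at 0.398 times mt-Co1, with coefficients of variation of 3.82% and 4.77%.

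The ratio farthest above 1 was that of mt-Atp6. Its copy Gm10925 had 22932 FPKM against 3746 FPKM for the gene, a ratio of 6.12, and the 2 together, weighted by length, had 27455 ± 871 FPKM in control and 25699 ± 2018 FPKM in PAMH hearts. mt-Atp6 begins inside mt-Atp8, and the stretch that both genes hold, chrM:7927-7969, is shown with the start codon of mt-Atp6 in capitals.
mt-Atp8 end and mt-Atp6 start: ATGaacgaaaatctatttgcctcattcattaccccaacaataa
The 2 mRNAs are known to be carried on 1 RNA, and fragments over these 43 bases belong to both genes. mt-Nd4l and mt-Nd4 overlap by 7 bases, and mt-Nd5 and mt-Nd6, on opposite strands, by 14. None of the 7 copies passed the test, all had negative changes in the deposited FPKM (median -0.098), and they held 22.7% ± 0.254 of the FPKM sum in control and 22.2% ± 0.739 in PAMH hearts. Adding each copy to its gene left 13 of 13 mRNA changes negative and none past the threshold. The 5 tRNA genes that fell have no annotated copy in that region.

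The nuclear genome supplies every protein that copies, transcribes, cuts, modifies and translates mitochondrial RNA. On 7 lists of such factors 104 genes were tested, and 11 (10.6%) were higher in PAMH hearts and 1 lower. Among all tested genes 4.95% were higher and 1.24% lower. A positive change was seen in 75 of the 104 (median 0.091) and in 6352 of all 9439 tested genes (median 0.071). The balance of rises and falls depends on scaling: over all genes 467 were called higher and 117 lower in the deposited FPKM, and 218 higher and 212 lower under median ratio scaling.

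In transcription, 2 of 9 rose. Tefm, the elongation factor of mitochondrial RNA polymerase, rose from 8.57 ± 0.813 to 11.3 ± 1.24 FPKM, a log2 fold change of 0.36 (SE 0.090, limma adjusted p = 0.0370). Mrpl12, a ribosomal protein that also binds the polymerase, rose from 86.8 ± 3.54 to 117 ± 16.4 FPKM, a log2 fold change of 0.41 (SE 0.088, limma adjusted p = 0.0182). The polymerase itself, Polrmt, had 2.70 ± 0.310 and 3.15 ± 0.514 FPKM (adjusted p = 0.331), and the promoter factors Tfam and Tfb2m had 5.03 ± 0.227 and 6.08 ± 1.17 FPKM (adjusted p = 0.228) and 11.8 ± 1.69 and 12.5 ± 1.60 FPKM (adjusted p = 0.740). Mterf3, a repressor of mitochondrial transcription, had 2.49 ± 0.448 and 2.54 ± 0.318 FPKM (adjusted p = 0.896).

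In RNA processing and decay, 4 of 21 rose. Supv3l1, the helicase of the mitochondrial RNA degradosome, rose from 7.39 ± 0.443 to 10.04 ± 1.184 FPKM, a log2 fold change of 0.39 (SE 0.084, limma adjusted p = 0.0188). Fastk, an RNA-binding protein with a role in mt-Nd6 mRNA, rose from 19.6 ± 0.806 to 26.8 ± 4.36 FPKM (0.42, limma adjusted p = 0.0323), and Ptcd2, needed for the maturation of mt-Cytb RNA, from 21.1 ± 1.56 to 26.8 ± 2.94 FPKM (0.33, limma adjusted p = 0.0394). Endog, a nuclease, rose from 30.7 ± 2.42 to 42.2 ± 8.33 FPKM (0.43, limma adjusted p = 0.0460). Elac2, which cuts the 3′ end of tRNAs, did not pass, with 4.27 ± 0.269 and 4.5 ± 0.573 FPKM (adjusted p = 0.718). Lrpprc and Slirp, which together keep mitochondrial mRNAs stable, had 10.6 ± 0.370 and 11.4 ± 1.06 FPKM (adjusted p = 0.483) and 3.78 ± 1.02 and 5.13 ± 1.62 FPKM (adjusted p = 0.313). Mtpap, the mitochondrial poly(A) polymerase, had 1.62 ± 0.0771 and 2.13 ± 0.32 FPKM without overlap (adjusted p = 0.0833, and 0.0366 without PAMH replicate 3). Several of the nuclear genes named here overlap a gene on the opposite strand, so without strand their fragments cannot be fully told apart: Fastk with Slc4a2, Endog with Spout1, Slirp with Snw1, Elac2 with Arhgap44, Mterf3 with Ptdss1, Twnk with Mrpl43, Gabpa with Atp5j, Mrm3 with Glod4 and Esrra with Trmt112.

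In tRNA and rRNA modification, 3 of 20 rose, each known to act on the mitochondrial ribosome or its RNA. Mrm1 and Mrm3, methyltransferases that modify the large rRNA (the product of mt-Rnr2), rose from 3.42 ± 0.151 to 5.74 ± 0.977 FPKM, a log2 fold change of 0.60 (SE 0.095, limma adjusted p = 0.00538) and from 5.89 ± 0.484 to 11.04 ± 3.46 FPKM (0.76, SE 0.15, limma adjusted p = 0.0144). Mrm3 had 10.03, 9.66, 7.72, 16.9 and 10.9 FPKM in PAMH hearts against at most 6.50 FPKM in control hearts. Mettl17, needed for the small ribosomal subunit, rose from 1.44 ± 0.105 to 2.25 ± 0.498 FPKM (0.40, limma adjusted p = 0.0357). None of the 19 tested enzymes that charge the mitochondrial tRNAs with amino acids, or complete that step, passed. Of those for the tRNAs of the cluster, Aars2 (alanine) had a log2 fold change of 0.066, Nars2 (asparagine) of -0.0063, Cars2 (cysteine) of -0.043 and Yars2 (tyrosine) of -0.030, and Wars2 (tryptophan) was under 1 FPKM and was not tested. In translation, 1 of 14 rose, the initiation factor Mtif2, from 6.19 ± 0.450 to 8.51 ± 0.958 FPKM (0.40, limma adjusted p = 0.0165).

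**Figure D5:**
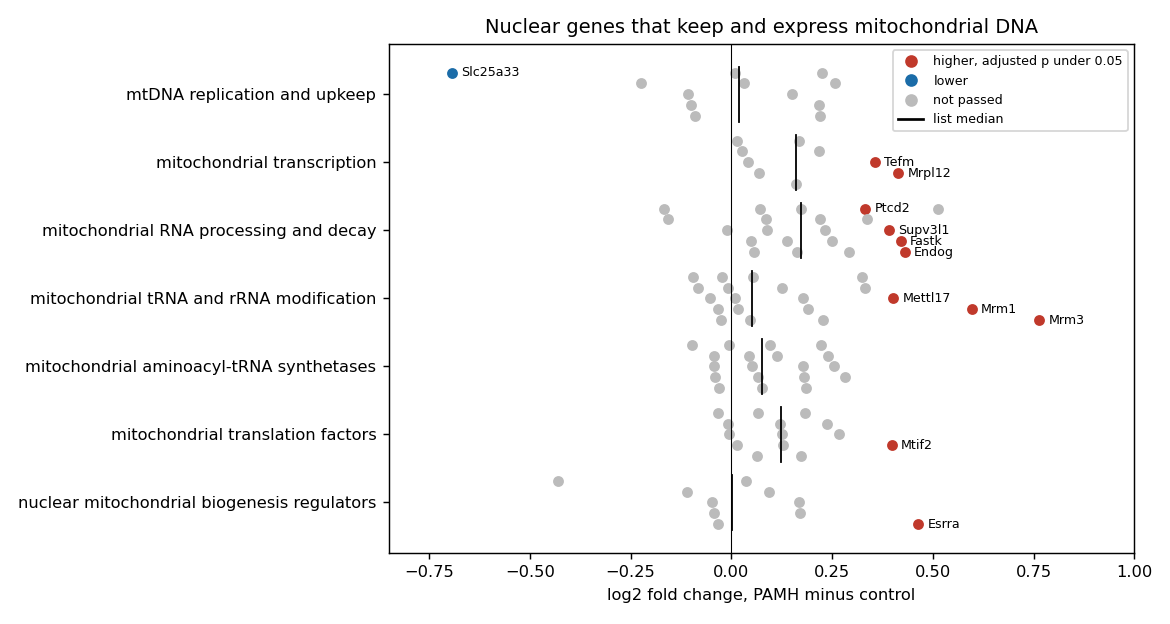
Log2 fold change (PAMH minus control, horizontal axis) of the 104 tested nuclear genes of 7 lists of mitochondrial gene expression, a point per gene and list and a vertical bar at each list's median. Red points passed as higher (11 genes) and the blue point, Slc25a33, as lower.

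In replication and upkeep of mitochondrial DNA, none of 12 rose and 1 fell. Slc25a33, a carrier of pyrimidine nucleotides into mitochondria, had 18.4, 17.1, 18.5, 15.3 and 18.0 FPKM in control and 11.03, 8.81, 8.86, 12.6 and 11.2 FPKM in PAMH hearts. The groups were far apart (log2 fold change -0.69, SE 0.10, limma adjusted p = 0.00326). Polg, the DNA polymerase, had 3.76 ± 0.244 and 3.09 ± 0.332 FPKM without overlap (log2 fold change -0.22, adjusted p = 0.0961, and 0.0485 without PAMH replicate 4). Twnk, the replicative helicase, had 5.47 ± 0.408 and 6.54 ± 0.427 FPKM (0.22, adjusted p = 0.0836, and 0.0445 without PAMH replicate 4), and Ssbp1, the single-strand binding protein, 1.30 ± 0.194 and 1.68 ± 0.246 FPKM (adjusted p = 0.153).

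Among regulators of mitochondrial biogenesis, 1 of 10 rose. Esrra, a nuclear receptor that turns on genes of oxidative metabolism, had 18.2, 21.4, 19.8, 20.7 and 20.6 FPKM in control and 28.0, 27.8, 25.1, 33.3 and 27.0 FPKM in PAMH hearts (log2 fold change 0.46, SE 0.081, limma adjusted p = 0.00808). Every PAMH heart was above every control heart. Its coactivator Ppargc1a ranged from 13.8 to 25.3 FPKM in control and from 10.1 to 14.96 FPKM in PAMH hearts, with overlap (log2 fold change -0.43, adjusted p = 0.115). Gabpa had 4.18 ± 0.422 and 3.83 ± 0.696 FPKM (adjusted p = 0.568), and Nrf1 was under the filter at 0.381 ± 0.0372 and 0.480 ± 0.153 FPKM.

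The calls of Mrm1, Mrm3, Esrra and Slc25a33 held with any 1 sample left out. Leaving out control replicate 3 ended those of Mrpl12 (adjusted p = 0.0523), Supv3l1 (0.0579) and Mtif2 (0.0510), as did control replicate 4 for Mrpl12 (0.0528) and PAMH replicate 1 for Supv3l1 (0.0517). Tefm and Mettl17 were lost without any control replicate or PAMH replicate 1, 2 or 5 (adjusted p up to 0.0980 and 0.0925). Fastk was lost without control replicate 1, 3, 4 or 5 or PAMH replicate 2 or 5 (up to 0.0839), Endog without those controls or PAMH replicate 1 or 2 (up to 0.107), and Ptcd2 without those controls or PAMH replicate 1, 2 or 4 (up to 0.104). Other settings ended more of the calls. Median ratio scaling ended 6 of the 12 (Endog, Fastk, Mettl17, Mrpl12, Ptcd2 and Tefm), quantile normalization 6 (the same with Mtif2 in place of Mrpl12) and nuclear-sum scaling 4 (Endog, Mtif2, Ptcd2 and Tefm). The fit with no filter ended 9, Esrra among them (adjusted p = 0.0612), and kept Mrm1, Mrm3 and Slc25a33. No other setting ended the call of Esrra, and none ended those of Mrm1, Mrm3 and Slc25a33.

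The respiratory complexes are built from both genomes, so the nuclear subunits were set beside the mitochondrial ones. Of 43 tested nuclear subunits of complexes I, III, IV and V none passed (limma adjusted p of at least 0.219). None had an unadjusted limma p under 0.05, as 24.0% of all tested genes did. In the deposited FPKM 38 of the 43 had a positive change (median 0.086). Most genes did there, with 6352 of 9439 tested genes positive (median 0.071). Under nuclear-sum, median ratio and quantile scaling 16, 19 and 17 of the 43 were positive. The medians of the 4 complexes were 0.052 (I), 0.10 (III), 0.13 (IV) and 0.076 (V) on the log2 scale. Their mitochondrial partners had medians of -0.10, -0.070, -0.055 and -0.13. These are values of the deposited FPKM, and the contrast in sign depended on scaling. Under nuclear-sum scaling the medians were -0.21 for mitochondrial mRNAs and -0.028 for nuclear subunits. Under median ratio scaling they were -0.19 and -0.012, and with the same FPKM sum -0.047 and 0.13. Mitochondrial genes with their nuclear copies held 78.9% ± 0.815 of the FPKM sum in control and 76.3% ± 2.32 in PAMH hearts, with overlap. The difference between the genomes was not tested.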

How the data were processed

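RNA abundance was measured by RNA-seq in 5 control and 5 PAMH heart samples, grouped by the labels' titles. The values are FPKM deposited by the authors. Which tool gave them, with which annotation, and how fragments with several matches were handled is not given in the sources used here. Processing notes of the submitters name HISAT2 2.2.1 and HTSeq 0.13.5 and build mm10, among other tools, and assign them no step. Identifiers were matched to GENCODE vM21 (55154 found, 181 not). Genes that averaged 1 FPKM or more were tested as log2(FPKM + 1), a scale that understates changes of low genes, with limma 3.58.1 in R 4.3.3 (group term, empirical Bayes with trend, 2-sided, Benjamini-Hochberg over 9439 genes). The procedure was tested on simulated data. Ratios within samples were compared by exact permutation tests adjusted over 4 ratios. Class sums carry no test. tRNA sequences came from GENCODE transcripts, and the anticodon was placed where 5 flanking bases on each side pair best. Copies were aligned to genes with Biopython 1.88, and figures drawn with matplotlib 3.10.9. The members and gene lists were chosen with earlier results of these data known. All 37 mitochondrial genes were named, with the copies beside them, every list gene past the threshold and a fixed panel of nuclear regulators and factors. Aars2, Nars2, Cars2, Yars2 and Wars2 were named outside this rule, for their amino acid. The labels state no pairing by replicate number, and none was seen in the values. Alternatives were a pseudocount of 0.1, no filter, a mean of at least 5 FPKM, 4 scalings (same sum, same nuclear sum, median ratio, quantile), copies added to genes, the replicate block and each sample left out, and, chosen after seeing the data, scaling to the mitochondrial protein-coding sum and leaving out 2 PAMH samples at once.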

Additional observations from a re-analysis of the deposited data

Results flagged for a closer look

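In 140 groups of 5 samples examined for a sample far from the others, 7 had one, about the 1 in 20 that chance gives. Of the mitochondrial genes, PAMH replicate 1 was below the other PAMH hearts for mt-Ta (2485 against 2870 to 2964 FPKM) and mt-Co2 (22352 against 24036 to 24566 FPKM). PAMH replicate 5 stood above the other PAMH hearts for the tRNAs mt-Tg (650 against 334 to 422 FPKM) and mt-Th (480 against 371 to 396 FPKM), which lie apart on the genome. The ratio of mt-Rnr2 to mt-Rnr1 was 1.68 in PAMH replicate 3 and 1.36 to 1.42 in the other PAMH hearts. Among the nuclear genes, PAMH replicate 4 was low for Gabpa (2.63 against 3.99 to 4.42 FPKM) and control replicate 3 for Supv3l1 (6.62 against 7.44 to 7.78 FPKM).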

How the results depend on the processing

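The fall of the 5 neighbouring tRNA genes kept its direction in all 22 other settings and its 5 calls in 20 of them. Under quantile normalization 2 tRNA genes were lower (mt-Tw and mt-Tq). mt-Rnr1 or mt-Rnr2 was called in other settings: 1 rRNA at a mean of at least 5 FPKM, under nuclear-sum scaling and without PAMH replicates 3 and 4, and 2 under median ratio scaling. Of 9439 genes 467 were higher and 117 lower. The counts were 143 and 69 with no filter (where limma had many variances of 0), 216 and 210 under nuclear-sum scaling, 218 and 212 under median ratio scaling, 234 and 246 under quantile normalization and 175 and 64 with the replicate block. Without PAMH replicates 3 and 4 993 were higher, without 4 and 5 275 were higher, and 75 were lower at a mean of at least 5 FPKM and 66 under mitochondrial protein-coding-sum scaling. With 1 sample left out 202 (without control replicate 3) to 979 (without PAMH replicate 3) were higher and 66 to 147 lower, 5 to 8 tRNA, 0 to 1 protein-coding and 0 to 1 rRNA genes were lower, and the protein-coding share differed by -1.59 to -0.43 percentage points.

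Samples of the same number showed no sign of pairing (correlations of their deviations from -0.19 to 0.16, and 3 of 10 samples correlated best with their own number). The labels do not say whether they were paired. With the replicate block the 5 tRNA genes passed (adjusted p of at most 0.0372), 7 of the 12 nuclear calls were lost (Endog, Fastk, Mettl17, Mrpl12, Mtif2, Ptcd2 and Tefm), and the mt-Rnr2 to mt-Nd1 difference of -0.22 had an adjusted p of 0.250, where 5 pairs allow no p under 0.0625. With 1 sample left out it ranged from -0.25 to -0.18.

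Changes of sign all concerned values that had not passed. With samples rescaled to the same sum, mt-Tv was 0.011, mt-Ts1 0.045, mt-Tk 0.027, mt-Co3 0.0032 and mt-Th 0.042. Scaled to the mitochondrial protein-coding sum, mt-Tv was 0.041, mt-Nd1 0.023, mt-Co1 0.024, mt-Ts1 0.076, mt-Co2 0.0060, mt-Tk 0.058, mt-Co3 0.035, mt-Th 0.073, mt-Tl2 0.0036, mt-Nd6 0.0089 and mt-Cytb 0.0088. Under nuclear-sum scaling mt-Tg was -0.072, mt-Tp -0.029, Elac2 -0.037, Lrpprc -0.016, Mterf3 -0.057 and Tfb2m -0.036, and under median ratio scaling -0.056, -0.013, -0.024, -0.0014, -0.044 and -0.021. Under quantile normalization mt-Atp6 was 0.00033, mt-Nd3 0.049, mt-Nd4 0.013, mt-Tg -0.099, Elac2 -0.027, Lrpprc -0.031, Mterf3 -0.041 and Tfb2m -0.037. Without PAMH replicates 3 and 4 mt-Tv was 0.063, mt-Th 0.054 and Mterf3 -0.030, and without 4 and 5 mt-Tv was 0.0036, mt-Tg -0.073, Gabpa 0.0023 and Mterf3 -0.023. With 1 sample left out the ranges were -0.20 to 0.16 (mt-Tv), -0.31 to 0.22 (mt-Ts1), -0.082 to 0.054 (mt-Tk), -0.12 to 0.12 (mt-Tg), -0.073 to 0.036 (mt-Th), -0.027 to 0.096 (Mterf3), -0.0037 to 0.15 (Tfb2m) and -0.019 to 0.039 (log2 ratio of mt-Co1 to mt-Cytb). Of the nuclear calls, Endog and Ptcd2 were also lost under protein-coding-sum scaling and Fastk, Mettl17 and Ptcd2 without PAMH replicates 4 and 5. The cause of these changes was not tested. The unknown depth limits what can be said of the precision of each value.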
